A study of Mus musculus with 12 samples.

Results

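The residual ovarian stromal tissue (OST) and the granulosa cells (GCs) of Sema3E-injected mouse ovaries were compared gene by gene. Protein-coding genes with a transcripts-per-million value (TPM) over 1 in at least 1 of the 6 libraries of these ovaries were kept, which left 12622 genes of 17174 protein-coding genes and of 23150 genes in the deposited table. Superovulated immature wild-type C57BL/6J females had received 2 µg recombinant Sema3E in 10 µL into 1 ovary and IgG into the other, and both ovaries were taken 8 h post-hCG, before the follicles rupture. The groups used were OST of Sema3E ovaries (n = 3), GCs of Sema3E ovaries (n = 3), OST of IgG ovaries (n = 3) and GCs of IgG ovaries (n = 3), all of the same strain, hormone regimen and time. GCs were released by puncturing follicles with a needle, and OST is what remained. It thus holds the cells of the ovary that puncture did not release, any GCs left behind among them. Each replicate was the tissue of a single ovary, and no label ties a replicate number to an ovary or a mouse.

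GCs line the follicle, make oestradiol before the LH surge, and respond to the surge (here imitated by hCG) by switching to progesterone synthesis and by laying down the matrix around the oocyte. Theca cells outside the follicle wall make the androgen that GCs convert to oestrogen, and the blood vessels, smooth muscle and fibroblasts of the ovary all lie outside the follicle's basement membrane at this stage. Sema3E is a secreted guidance protein that binds Plexin-D1, a receptor best known from endothelial cells, and it restrains vessel growth in other tissues.

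The 2 tissues stood far apart in gene expression. On a principal component analysis of log2(TPM + 1), the first component carried 85.7% of the variance, with scores of 45.47, 43.43 and 43.77 for the 3 OST libraries, against −42.37, −41.82 and −48.48 for the 3 GC libraries. Correlations across genes, which are not independent replicates, were 0.990 to 0.993 between OST libraries and 0.990 to 0.996 between GC libraries, against 0.915 to 0.937 between an OST and a GC library. No library of the 6 therefore stood nearer to the other tissue than to its own. Globin transcripts took 0.4%, 0.637% and 0.421% of all TPM in OST, against 6.64%, 15.8% and 7.95% in GCs. Mitochondrially encoded transcripts took 16.9% to 20.3% in OST, against 21.0% to 24.1% in GCs. Sequencing depth cannot be read from TPM and is unknown here.

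Of the 12622 genes, 6713 (53.2%) differed between OST and GCs at a Benjamini-Hochberg adjusted p under 0.05 in limma, which compares group means of log2(TPM + 1) with a spread shared among genes. Higher values in OST were found for 4182 genes (33.1%), against 2531 genes (20.1%) that were higher in GCs. With the cutoffs of the study, an unadjusted p under 0.05 and a fold over 2, 1119 genes (8.87%) were higher in OST and 329 (2.61%) were higher in GCs. The imbalance grew with size, as 374 genes were higher in OST by over 2 on the log2 scale, against 34 genes higher in GCs, and 58 genes were higher in OST by over 4, against 5. The median log2 difference over all genes, OST minus GC, was 0.06, and the 5% and 95% quantiles were −0.76 and 1.44. The direction of small differences depended on the globin and mitochondrial transcripts, because TPM sums to a fixed total. Without those genes, and with the rest rescaled, the median was −0.18 and calls higher in OST made up 33.2% of the calls in place of 62.3%, or 57.6% in place of 77.3% under the cutoffs of the study, so the direction of a small log2 difference differs between the scalings. Leaving out GC replicate 1 or GC replicate 3 lowered the number of genes higher in GCs to 1669 or 1644.

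**Figure D1:**
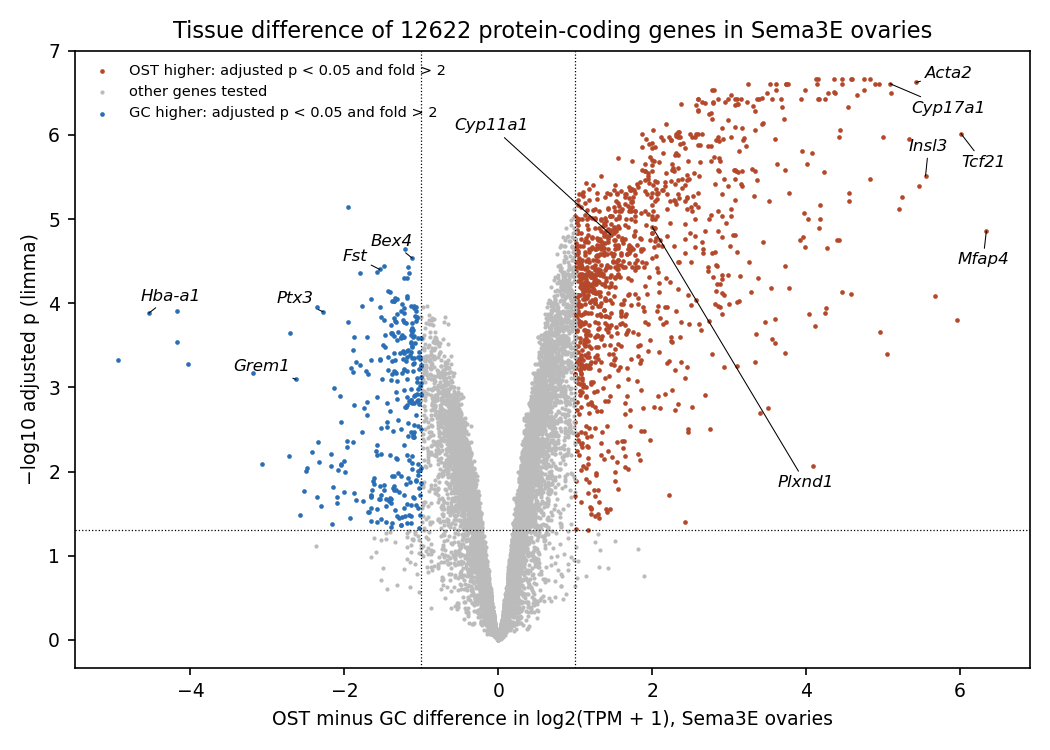
Each point is 1 of the 12622 protein-coding genes tested in Sema3E ovaries, with the OST minus GC difference in log2(TPM + 1) on the horizontal axis and −log10 of the limma adjusted p on the vertical axis; dotted lines mark an adjusted p of 0.05 and a fold of 2. More genes lie far to the right (374 beyond a log2 difference of 2) than far to the left (34).

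The genes furthest above GC levels in OST belonged to connective tissue, vessel wall and theca. Mfap4, a microfibril-associated protein of elastic fibres, had 156, 219 and 189.8 TPM in OST, against 2.55, 1.18 and 0.614 TPM in GCs (log2 difference 6.34, SE 0.29, limma adjusted p = 1.39e-05). Tcf21, a transcription factor of mesenchymal cells, had 149.6, 170 and 125 TPM in OST, against 1.61, 1.66 and 0.736 TPM in GCs (6.01). The lowest OST library thus stood far above the highest GC library for both. The other genes among the 12 with the largest differences were Ccl21a, a lymphatic chemokine (5.67), Insl3, a peptide hormone of theca cells (5.55), Bgn, a matrix proteoglycan (5.47), Acta2 and Tagln, contractile proteins of smooth muscle (5.43 and 5.33), Col3a1, a fibrillar collagen (5.24), Cldn5, the tight junction protein of endothelium (5.21), Igfbp7, a secreted IGF-binding protein (5.10), Cyp17a1, the androgen-forming enzyme (5.09), and Aqp2, a water channel (5.05). Ccl21a has near-identical copies in the mouse genome among which reads could have been split, so its level is uncertain. The rule that chose these 12 also required groups that do not overlap, which 38.2% of all genes had with the higher values in OST, so nothing is read from their separation.

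On the GC side the largest differences were those of red cell and leukocyte genes. Hba-a1, an alpha-globin gene, had 1165, 1768 and 1638 TPM in OST, against 27097, 59394 and 26563 TPM in GCs (log2 difference −4.54, SE 0.35, limma adjusted p = 0.000131). Hba-a2, Hbb-bs and Hbb-bt, the other adult globin genes, had differences of −4.03, −4.17 and −4.94, and Alas2, the red cell enzyme that starts haem synthesis, had −4.17. Reads of near-identical globin copies cannot be assigned with certainty, although all 4 lay in the same direction. The next were Arg1 (−3.19), the arginine-degrading enzyme, Saa3 (−3.07), an acute-phase protein, Cxcl2 (−2.72), a neutrophil-attracting chemokine, Ccl6 (−2.70), a chemokine of myeloid cells, Grem1 (−2.63), a secreted BMP antagonist of GCs and cumulus cells, Asprv1 (−2.58), an aspartic protease, and Il1b (−2.50), the cytokine interleukin-1 beta. Asprv1 lost its call without OST replicate 2 (adjusted p = 0.0741), OST replicate 3 (0.122), GC replicate 1 (0.153) or GC replicate 3 (0.13), and Saa3 lost it without OST replicate 3 (0.0586). These 12 too were chosen for groups that do not overlap, which 25.2% of all genes had with the higher values in GCs.

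**Figure D2:**
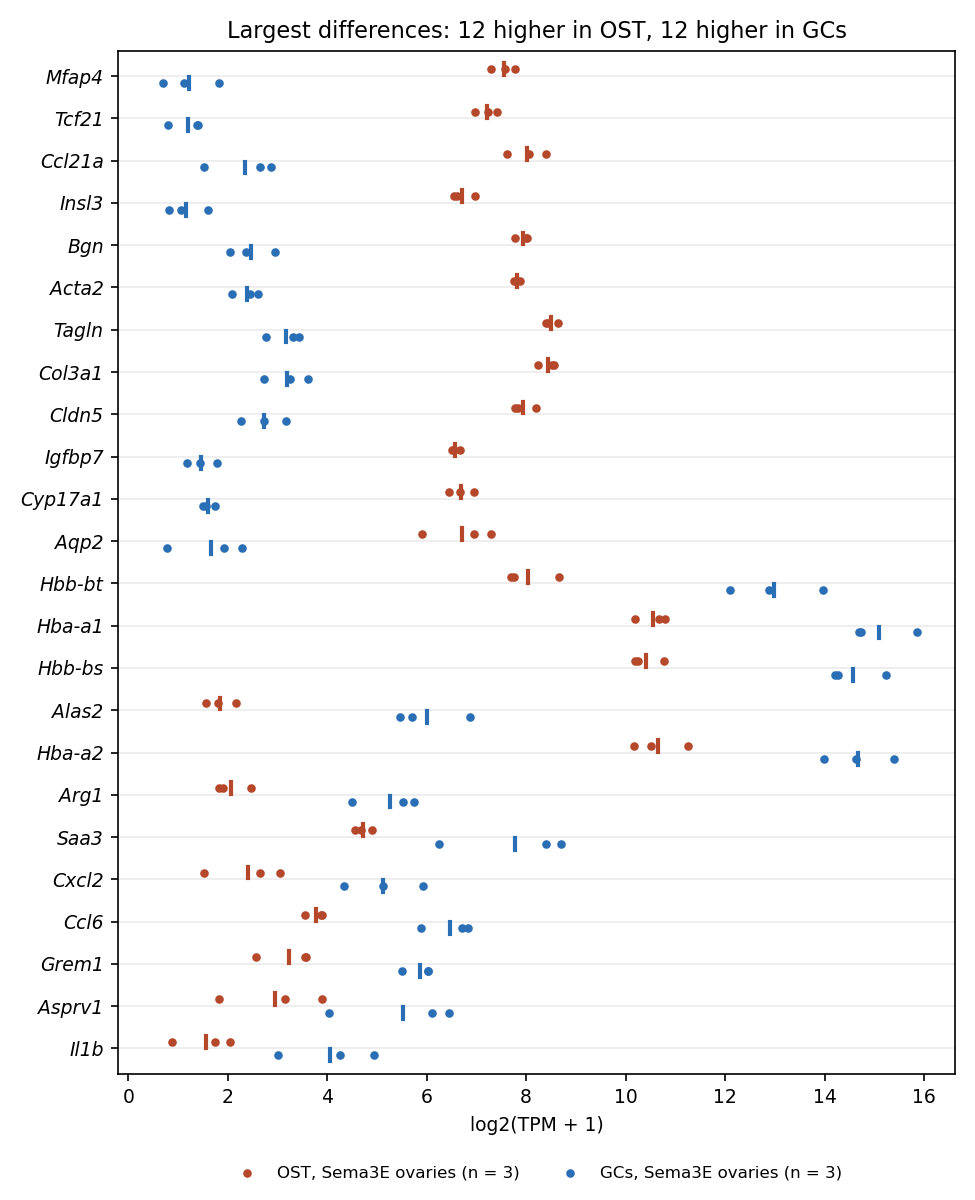
Points are the log2(TPM + 1) of each library and ticks the group means, for the 12 genes with the largest differences higher in OST (top) and the 12 higher in GCs (bottom), with OST above GCs in each row. Genes were chosen for groups that do not overlap, and the globin genes reach far higher levels than any other gene shown.

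Vessel wall muscle gave the most uniform gene list. Of 17 smooth muscle and pericyte genes tested, all 17 were higher in OST, with a median log2 difference of 3.17, beside 33.1% and 0.06 over all genes. Acta2 (ENSMUSG00000035783, GRCm38 chr19:34241090-34255590, minus strand), which encodes smooth muscle actin, had 216, 235 and 222 TPM in OST, against 4.45, 5.09 and 3.26 TPM in GCs, 52.5 times as much in OST by the group means (log2 difference 5.43, SE 0.13, adjusted p = 2.37e-07). Its 3 OST values lay close together. Actg2, the gamma actin of visceral muscle, had 24.6, 27.8 and 31.7 TPM in OST, against 0.229, 0.225 and 0.182 TPM in GCs (4.58). Cnn1, the actin-binding protein calponin (4.14), and Rgs5, a regulator of G-protein signalling typical of pericytes (3.61), followed. The smallest difference in the list was that of Myocd, the coactivator of smooth muscle genes (0.72). Summed over the list, TPM was 924 to 1012 in OST, against 34.7 to 47.5 in GCs. As these are bulk samples, fewer cells of a type and less RNA per cell cannot be told apart, here or for the other lists.

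Endothelial genes followed the same pattern. Among 20 tested, 19 were higher in OST with a median of 3.10, beside 33.1% of all genes. Lyve1, a hyaluronan receptor of lymphatic vessels and macrophages, did not pass (−0.72, adjusted p = 0.0557). Without GC replicate 1, 1 gene of the list was called higher in GCs. The same count came without globin and mitochondrial genes, with scaling by median ratios, without robust estimation and with the replicate number as a block. Eng, a TGF-beta coreceptor of endothelium, had 54.7, 54.2 and 54.4 TPM in OST, against 1.55, 0.855 and 0.833 TPM in GCs (log2 difference 4.75, SE 0.13, adjusted p = 2.91e-07). Tie1, an orphan receptor tyrosine kinase of vessels, had 31.0, 28.9 and 26.2 TPM in OST, against 0.692, 0.399 and 0.276 TPM in GCs (4.36). The GC values of both genes were low in every library. Esam, a junction protein (4.28), and Sox17, an arterial transcription factor (3.76), were also higher in OST. The summed TPM of the list was 945 to 1060.4 in OST, against 147 to 165 in GCs, so GCs were not free of endothelial transcripts.

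The receptors of vessel growth factors were higher in OST, and their ligands varied. Of 16 VEGF and angiopoietin pathway genes, 13 were higher in OST with a median of 1.62, beside 33.1% of all genes. None passed in the other direction and 3 did not pass. However, 1 gene was called higher in GCs without GC replicate 2, and 2 without globin and mitochondrial genes. Kdr, the main VEGF-A receptor, had 18.0, 20.2 and 21.2 TPM in OST, against 1.98, 1.74 and 0.731 TPM in GCs (log2 difference 3.10, SE 0.20, adjusted p = 2.45e-05), and Flt4, the lymphatic VEGF receptor, had a difference of 2.57. Vegfa, the ligand itself, had 86.7, 94.7 and 119 TPM in OST, against 127, 97.2 and 103 TPM in GCs (−0.13, SE 0.14, adjusted p = 0.48), and its groups overlapped, as the highest library was a GC library and the lowest an OST library. Vegfd, a ligand of Flt4, had 9.50 to 11.1 TPM in OST, against 0.251 to 0.390 TPM in GCs (3.08). Angpt2, an antagonist ligand of the Tek receptor, had 4.55, 5.78 and 5.96 TPM in OST, against 1.46, 1.99 and 1.28 TPM in GCs (1.32).

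Plxnd1, which encodes the Sema3E receptor (ENSMUSG00000030123, GRCm38 chr6:115954811-115995005, minus strand), had 35.5, 42.2 and 46.0 TPM in OST, against 9.74, 10.8 and 8.13 TPM in GCs. That was 4.32 times as much in OST by the group means (log2 difference 2.00, SE 0.13, limma adjusted p = 1.24e-05). The groups did not overlap, which 38.2% of all genes showed with the higher values in OST. In IgG ovaries the log2 difference was 1.65. Sema3e mRNA itself was low in both tissues, at 0.373, 0.399 and 0.582 TPM in OST, against 1.17, 0.860 and 0.774 TPM in GCs (−0.41, SE 0.12, adjusted p = 0.0207). That call was lost without OST replicate 1 (adjusted p = 0.0553) or OST replicate 2 (0.0589). Sema3e passed the filter of 1 TPM only through GC replicate 1, a library of the group called higher. It was not tested without that library, so nothing is read from the call. The injected agent was protein, so this transcript does not measure it.

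Of 15 genes of the class 3 semaphorins, plexins and neuropilins, 6 were higher in OST and 6 in GCs, with a median of −0.23, beside 33.1% and 20.1% of all genes. The genes higher in GCs included Sema3e, and without GC replicate 1 the GC count was 5 of 14. On the OST side, Sema3f, a neuropilin-binding semaphorin, had 13.7, 11.7 and 16.8 TPM in OST, against 0.748, 0.520 and 0.310 TPM in GCs (log2 difference 3.30), and Nrp2 and Nrp1, the semaphorin and VEGF coreceptors, had differences of 2.01 and 1.34. On the GC side, Sema3c had 2.83, 4.73 and 4.32 TPM in OST, against 10.4, 9.47 and 10.6 TPM in GCs (−1.19), and Plxnc1, a receptor of class 7 semaphorins, had −0.90. Sema3g (−0.62), Sema3b (−0.53) and Plxna1 (−0.67) were also higher in GCs. Both coreceptors and Plxnd1 thus lay on one side, whereas the ligands were split between the tissues.

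Notch genes, which pattern arteries and mural cells, were mostly higher in OST, with 9 of 14 in that direction, 3 higher in GCs and a median of 0.76. Among all genes, 33.1% were higher in OST and 20.1% in GCs. The GC count is near that share, so nothing is read from it. Nrarp, a feedback inhibitor of Notch, had 46.8, 43.4 and 48.4 TPM in OST, against 3.70, 2.03 and 2.20 TPM in GCs (log2 difference 3.72). The endothelial ligand Dll4 (3.44), the endothelial receptor Notch4 (2.92) and the mural cell receptor Notch3 (2.61) were also higher in OST. Notch2, the receptor expressed by GCs, went the other way with 4.95, 8.80 and 9.11 TPM in OST, against 18.8, 17.2 and 17.6 TPM in GCs (−1.17). Hey2 and Heyl, targets of Notch, had differences of −0.59 and −0.64, and Heyl lost its call without GC replicate 3 (adjusted p = 0.0535).

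Fibroblast and collagen genes were higher in OST in 20 of 22 cases, beside 33.1% of all genes, with a median of 2.97. Ogn, a small proteoglycan, had 50.1, 55.3 and 59.8 TPM in OST, against 1.15, 0.736 and 0.604 TPM in GCs (log2 difference 4.95), Lum, a proteoglycan that spaces collagen fibrils, had 4.43, and Eln, the elastin gene, had 3.93. Col6a1, a beaded-filament collagen, was higher in OST by a smaller margin (2.80). The 1 gene that went against the list was Fbln1, a matrix glycoprotein, with 19.4, 25.9 and 21.8 TPM in OST, against 48.1, 45.8 and 51.1 TPM in GCs (−1.08, SE 0.11, adjusted p = 0.000143). Fn1, fibronectin, did not pass (0.14).

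Of 13 basement membrane genes, 10 were higher in OST and 2 in GCs (median 1.02), beside 33.1% and 20.1% of all genes. Col4a1 and Col4a2, the main type IV collagen chains, had differences of 2.34 and 2.18, and Nid1 and Nid2, the nidogens that link collagen to laminin, had 2.87 and 2.48. Lama1, a laminin alpha chain, had 12.2, 13.9 and 14.5 TPM in OST, against 25.6, 24.1 and 26.0 TPM in GCs (−0.86). Lamb2, a laminin beta chain, was the other gene higher in GCs (−0.31), and it lost that call without GC replicate 1 (adjusted p = 0.0558), GC replicate 2 (0.0762) or GC replicate 3 (0.0543). The collagens and nidogens of the membrane were thus on the OST side and Lama1 on the GC side.

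Of 19 matrix proteases and inhibitors, 12 were higher in OST and 5 in GCs (median 0.67), beside 33.1% and 20.1% of all genes. Mmp2, a gelatinase, had 65.5, 64.4 and 72.8 TPM in OST, against 2.52, 2.15 and 1.69 TPM in GCs (log2 difference 4.46, SE 0.11, adjusted p = 2.46e-07). Timp3 and Timp1, inhibitors of these proteases, had differences of 2.07 and 1.5. Adamts1, the protease that cleaves versican at ovulation, had 277, 392 and 363 TPM in OST, against 779, 760.5 and 684 TPM in GCs (−1.12). Ctsl, a lysosomal cysteine protease induced before ovulation (−0.94), and Serpine2, an inhibitor of plasminogen activators and thrombin (−1.23), were higher in GCs as well. The fit over all 12 libraries called 5 of the list higher in OST and 2 in GCs. Timp1 (limma adjusted p = 0.262) and Adamts1 (0.412) lost their calls there.

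Theca cell and hedgehog target genes were higher in OST in 8 of 12 cases, beside 33.1% of all genes. None was called higher in GCs and the median was 1.90. Insl3 had 125, 92.5 and 96.5 TPM in OST, against 2.06, 1.08 and 0.757 TPM in GCs (log2 difference 5.55, SE 0.22, adjusted p = 3.08e-06). Cyp17a1 had 86.8, 122 and 101 TPM in OST, against 2.33, 1.82 and 1.97 TPM in GCs (5.09, SE 0.13, adjusted p = 2.46e-07), or 50.8 times as much by the group means. Pdgfra, a growth factor receptor of mesenchymal cells, had 4.23. Every GC library was low for Insl3, Cyp17a1 and Pdgfra, but not for the list as a whole. Summed over the list, TPM was 819 to 904 in OST, against 361 to 379 in GCs, and 4 genes did not pass.

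Surface epithelium genes were higher in OST in 11 of 12 cases, beside 33.1% of all genes, with a median of 1.52. However, 1 gene was called higher in GCs without GC replicate 3, without globin and mitochondrial genes, or with the replicate number as a block. Krt7, a keratin, had 13.7, 12.6 and 19.9 TPM in OST, against 2.83, 2.32 and 1.38 TPM in GCs (log2 difference 2.37), and Upk3b, a membrane protein of mesothelium, had 1.97. Wt1, a transcription factor shared by the surface epithelium and GCs of small follicles, had 1.39. Summed TPM of the list was 302 to 354 in OST, against 52.3 to 129.6 in GCs.

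**Figure D3:**
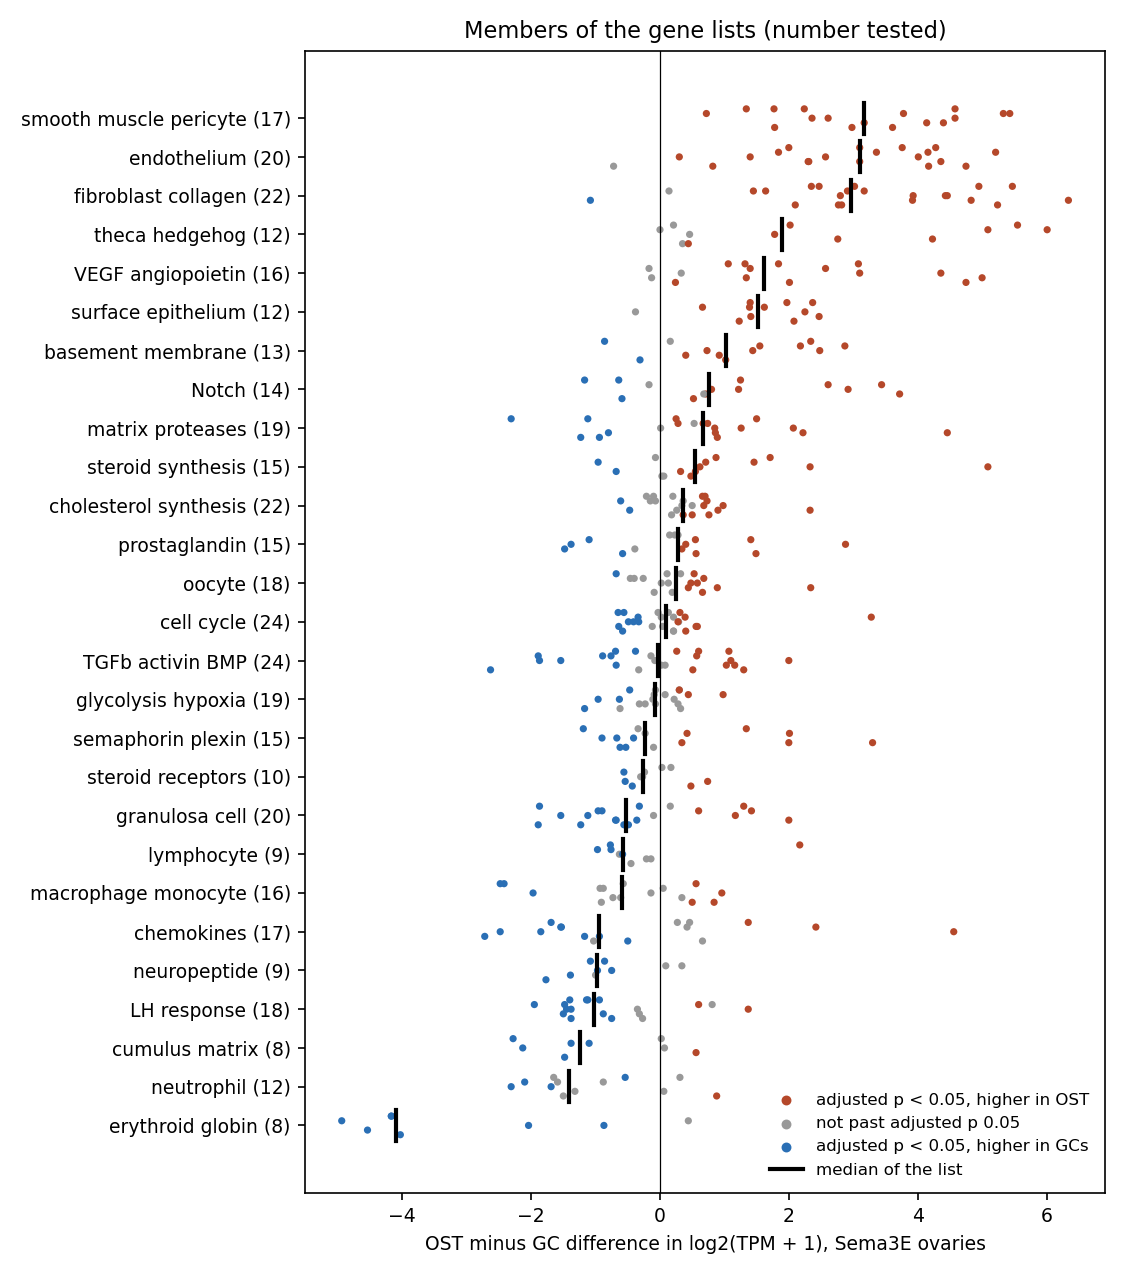
Each point is 1 gene of a list, placed by its OST minus GC difference in log2(TPM + 1) in Sema3E ovaries and coloured by whether it passed an adjusted p of 0.05 and in which direction; black bars are list medians, and lists are ordered by them. Smooth muscle, endothelium and fibroblast genes lie to the right with medians of 3.17, 3.10 and 2.97, and the erythroid list lies furthest to the left with a median of −4.10.

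GC markers were not uniformly higher in GCs. Of 20, 13 were higher in GCs, 5 were higher in OST and 2 did not pass, with a median of −0.52. Among all genes, 20.1% were higher in GCs and 33.1% in OST. The fit over all 12 libraries called 8 of the list higher in GCs and 2 in OST. The sum over the list was 7804 to 10131 TPM in OST, against 14208 to 14639 TPM in GCs. OST therefore held more than a trace of GC transcripts, and Inha, the inhibin alpha subunit, had 4762, 5644 and 4465 TPM in OST, against 7646, 8142 and 8048 TPM in GCs (log2 difference −0.69, SE 0.09, adjusted p = 0.000545). The part of GCs left in OST in the other differences was not tested.

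Fst, the activin-binding protein follistatin, had 154, 215 and 202 TPM in OST, against 535, 543 and 571 TPM in GCs (log2 difference −1.54, SE 0.12, adjusted p = 3.97e-05). Inhbb, an activin and inhibin beta subunit, had 214, 299 and 190.3 TPM in OST, against 898, 945 and 709 TPM in GCs (−1.87), and the other beta subunit, Inhba, had −1.89. Bex4, a small adaptor protein, had 1071, 1188 and 1067 TPM in OST, against 2441, 2188 and 2629 TPM in GCs (−1.12). Each of these genes had its lowest GC value above its highest OST value, as did 25.2% of all genes, so nothing is read from it.

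The 5 GC markers that were higher in OST were Gatm, the first enzyme of creatine synthesis (2.00), Kctd14, a BTB-domain protein (1.42), Amh, the hormone of growing follicles (1.30), Nr0b1, the nuclear receptor DAX-1 (1.17), and Amhr2, the receptor of Amh (0.60). Amh had 944, 799 and 401 TPM in OST, against 258, 242 and 320.2 TPM in GCs (SE 0.32, adjusted p = 0.0166), and its call was lost without GC replicate 1 (adjusted p = 0.0731). Kctd14 had 95.4, 62.1 and 47.9 TPM in OST, against 28.6, 25.7 and 18.8 TPM in GCs (SE 0.27, adjusted p = 0.00572). Both genes were highest in OST replicate 1 and lowest in OST replicate 3. Amh is known from GCs of preantral and small antral follicles.

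Amhr2 had 79.5, 77.7 and 55.9 TPM in OST, against 40.0, 53.0 and 45.8 TPM in GCs (log2 difference 0.60, SE 0.16, adjusted p = 0.0155), a call lost without OST replicate 1 (adjusted p = 0.0584) or OST replicate 2 (0.0575), and without globin and mitochondrial genes (0.33, adjusted p = 0.16). Among the GC markers it was the gene with an NR5A site (CAAGGTCA, searched on both strands), the element bound by the steroidogenic nuclear receptors SF-1 and LRH-1, in its RefSeq promoter. Promoters ran from 250 bases before to 50 bases after a start site in GRCm38.p6. The site was found in 1 of 19 promoters of 16 GC markers, in 0 of 12 promoters of steroid synthesis genes and in 1.56% of 32851 promoters. A CArG box (CC, 6 bases of A or T, GG), the element of serum response factor, was found in 0 of 13 promoters of smooth muscle genes and in 1.63% of all promoters. The promoters covered 13 of 18 smooth muscle genes, 16 of 20 GC markers and 9 of 15 steroid synthesis genes. Only exact matches in this window were sought. With so few promoters and so low a share over all promoters, 0 of 13 is not read as a lack of the element. The Amhr2 promoter at chr15:102445117-102445416, plus strand, is shown because it held the match, with the site in capitals.
Amhr2 promoter: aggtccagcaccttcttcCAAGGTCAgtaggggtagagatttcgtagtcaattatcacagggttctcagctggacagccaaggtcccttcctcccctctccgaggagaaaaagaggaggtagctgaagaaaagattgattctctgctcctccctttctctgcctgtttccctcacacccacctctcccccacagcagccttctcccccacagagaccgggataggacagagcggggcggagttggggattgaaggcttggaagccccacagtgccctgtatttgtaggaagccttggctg

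Of 18 genes that respond to the LH surge, 12 were higher in GCs, 2 were higher in OST and 4 did not pass, with a median of −1.03, beside 20.1% and 0.06 over all genes, while the fit over all 12 libraries called 4 higher in GCs and 0 in OST. Sult1e1, which sulphates oestrogen, had 34.2, 53.9 and 45.4 TPM in OST, against 174, 145 and 201 TPM in GCs (log2 difference −1.95, SE 0.18, adjusted p = 0.000168). Prkg2, a cGMP-dependent kinase, had −1.40, and Zbtb16, a zinc-finger factor, had −1.38. Cebpa and Cebpb, transcription factors required in GCs for ovulation, had differences of −0.88 and −0.75, and Cebpb reached 1774, 2641 and 2444 TPM in OST, against 3668, 3709 and 3969 TPM in GCs. Nts, the peptide neurotensin that GCs make after the surge, had 55.1, 100.2 and 116 TPM in OST, against 304, 249 and 348 TPM in GCs (−1.77).

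Some early members of this response did not separate the tissues. Pgr, the progesterone receptor, had 0.540, 0.759 and 2.54 TPM in OST, against 1.69, 1.60 and 1.41 TPM in GCs (log2 difference −0.27, adjusted p = 0.476). Areg, an EGF-like ligand, had 4.35, 4.84 and 18.4 TPM in OST, against 5.30, 2.97 and 3.48 TPM in GCs (0.81, adjusted p = 0.23), and OST replicate 3 was the highest library for both genes. Ereg, another EGF-like ligand, was higher in OST, with 48.4, 48.3 and 87.3 TPM in OST, against 28.7, 17.7 and 21.6 TPM in GCs (1.37, SE 0.28, adjusted p = 0.00714), and again replicate 3 stood highest. Lhcgr, the LH receptor, had 25.5, 43.9 and 39.1 TPM in OST, against 48.1, 45.0 and 39.8 TPM in GCs (−0.32, adjusted p = 0.207).

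Genes of the cumulus matrix, the hyaluronan coat around the oocyte, were higher in GCs in 5 of 8 cases and in OST in 1. Beside these stood 20.1% and 33.1% of all genes, and the list median was −1.24. Only 3 were called higher in GCs without GC replicate 1 or without GC replicate 3, and 1 in the fit over all 12 libraries. Ptx3, a pentraxin that crosslinks the matrix, had 69.1, 105 and 102 TPM in OST, against 456, 366 and 525 TPM in GCs (log2 difference −2.28, SE 0.20, adjusted p = 0.000126). Vcan, the proteoglycan versican, had 92.0, 169 and 182 TPM in OST, against 669, 555 and 646 TPM in GCs (−2.13), and Has2, the hyaluronan synthase, had −1.38. OST replicate 1 was the lowest library for all 3 genes. The gene higher in OST was Ptger2, a receptor of prostaglandin E2 (0.56), and it lost its call without OST replicate 2 (adjusted p = 0.0597) and without globin and mitochondrial genes (0.36, adjusted p = 0.0604). Cd44, the hyaluronan receptor, had 3.37, 3.02 and 3.31 TPM in OST, against 4.76, 2.28 and 2.88 TPM in GCs (0.02, adjusted p = 0.953).

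Of 15 steroid synthesis genes, 10 were higher in OST and 2 in GCs, beside 33.1% and 20.1% of all genes. The median of 0.55 was 0.27 without globin and mitochondrial genes, where 7 were higher in OST and 4 in GCs. Fewer were called in the fit over all 12 libraries, 3 in OST and 2 in GCs. The OST count was 7 without OST replicate 2 or GC replicate 2, and the GC count was 1 without OST replicate 1, OST replicate 3, GC replicate 1 or GC replicate 2. Cyp11a1, the side-chain cleavage enzyme that starts the pathway, had 1449, 1672 and 1754 TPM in OST, against 655, 559.9 and 559 TPM in GCs (log2 difference 1.46, SE 0.10, adjusted p = 1.53e-05). Hsd17b7, which acts in oestradiol and in cholesterol synthesis, had 109, 182 and 168 TPM in OST, against 29.3, 29.4 and 27.9 TPM in GCs (2.33), and Por, the electron donor of microsomal P450 enzymes, had 0.87. Cyp17a1 is given above among the theca genes. Star, the cholesterol importer of mitochondria, had 1173, 1509 and 1801 TPM in OST, against 1033, 873 and 1125 TPM in GCs (0.55, SE 0.17, adjusted p = 0.0284), and its call was lost without OST replicate 2 (adjusted p = 0.0794), OST replicate 3 (0.0522), GC replicate 1 (0.0646) or GC replicate 2 (0.0717), and without globin and mitochondrial genes (0.27, adjusted p = 0.138).

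The 2 genes higher in GCs both act in oestradiol formation, as does Hsd17b7, which was higher in OST. Hsd17b1, which reduces oestrone to oestradiol, had 419, 474 and 302 TPM in OST, against 772, 791 and 727 TPM in GCs (log2 difference −0.96, SE 0.16, adjusted p = 0.00213). Cyp19a1, the aromatase, was low in both tissues, with 0.649, 1.40 and 0.744 TPM in OST, against 2.43, 2.70 and 1.23 TPM in GCs (−0.68, adjusted p = 0.0391). Cyp19a1 lost its call without OST replicate 1 (adjusted p = 0.124), OST replicate 3 (0.118), GC replicate 1 (0.111) or GC replicate 2 (0.103).

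**Figure D4:**
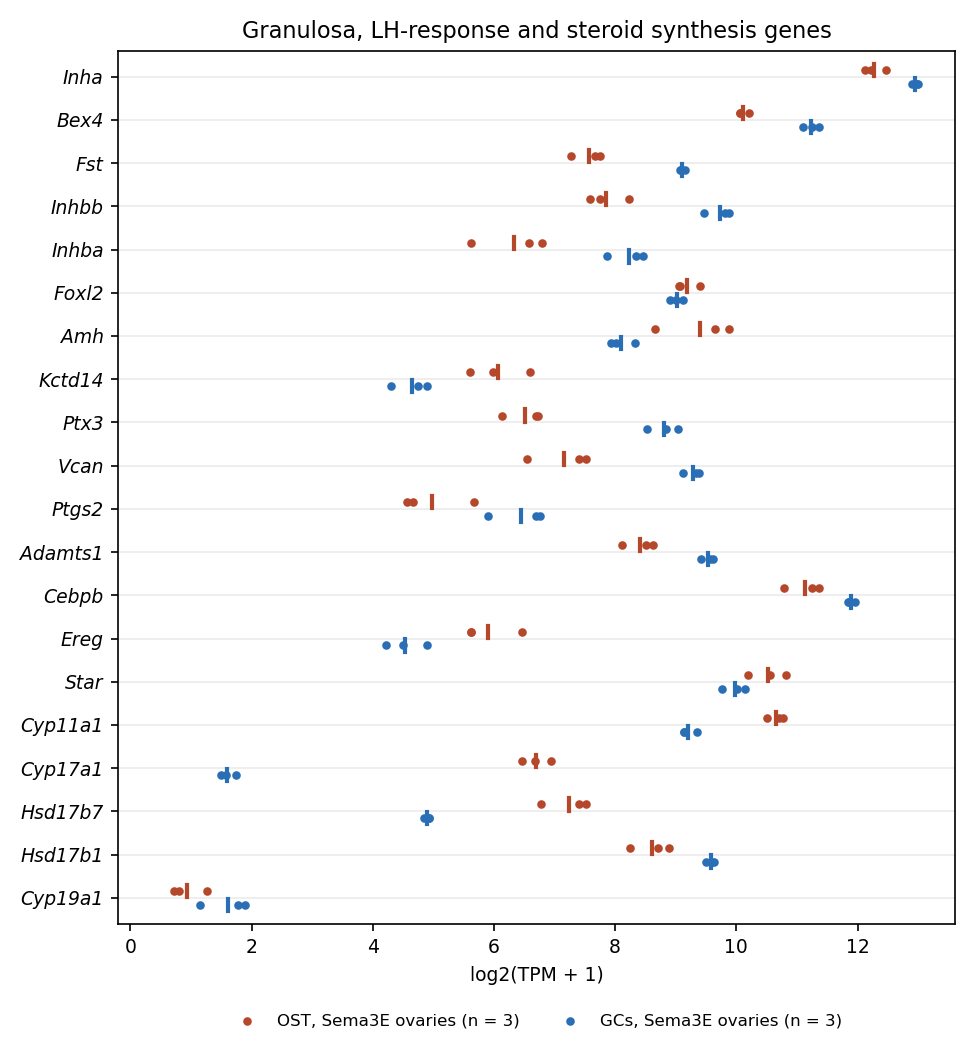
Points are the log2(TPM + 1) of each library and ticks the group means, with OST above GCs in each row, for GC markers, genes of the LH response and genes of steroid synthesis in Sema3E ovaries. Follistatin, the activin subunits, Ptx3 and Vcan lie further right in GCs, whereas Cyp11a1, Hsd17b7 and above all Cyp17a1 lie further right in OST.

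Cholesterol synthesis genes were higher in OST in 10 of 22 cases, beside 33.1% of all genes, and higher in GCs in 2, with a median of 0.36. Without globin and mitochondrial genes the counts were 6 and 4 and the median was 0.09, and in the fit over all 12 libraries the counts were 1 and 0. The OST count was 16 without OST replicate 1, and the GC count was 1 without GC replicate 1, 1 without GC replicate 2 and 0 without GC replicate 3. Pmvk (0.98), Sc5d (0.90) and Idi1 (0.76), enzymes of the pathway, were higher in OST.

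Of 24 genes of the TGF-beta superfamily, 10 were higher in OST and 9 in GCs, with a median of −0.03, beside 33.1% and 20.1% of all genes. Without globin and mitochondrial genes these counts were 7 and 12, and the median was −0.24. The genes higher in OST included a BMP, a TGF-beta and a binding protein, with Bmp4 at 7.80, 8.99 and 8.67 TPM in OST, against 1.53, 1.5 and 1.09 TPM in GCs (log2 difference 2.00), Tgfb3 at 1.07 and the follistatin-like Fstl3 at 1.16. The genes higher in GCs included receptors, with Bmpr2, the type 2 BMP receptor, at 13.3, 17.8 and 16.5 TPM in OST, against 31.5, 30.7 and 28.0 TPM in GCs (−0.89), Tgfbr1 at −0.76 and Acvr2b at −0.68. The BMP antagonist Grem1 had 4.91, 10.7 and 10.9 TPM in OST, against 64.6, 44.3 and 64.5 TPM in GCs (−2.63, SE 0.31, adjusted p = 0.000804), the largest difference in this list.

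Prostaglandin genes were higher in OST in 7 of 15 cases and higher in GCs in 4, with a median of 0.28, beside 33.1% and 20.1% of all genes. The OST count was 4 without OST replicate 2. Without globin and mitochondrial genes 3 of 16 were higher in OST and 5 in GCs, with a median of 0.05. Ptgds, a prostaglandin D synthase, had 18.0, 12.6 and 14.6 TPM in OST, against 1.47, 1.64 and 0.567 TPM in GCs (log2 difference 2.88), and Ptgfr, the receptor of prostaglandin F2-alpha, had 1.49. Genes of the early steps were higher in GCs. Pla2g4a, the phospholipase that releases arachidonic acid, had −1.10 and Ptgs1, a cyclooxygenase, had −1.38. Ptgs2, the inducible cyclooxygenase needed for ovulation, had 22.8, 24.3 and 50.1 TPM in OST, against 107, 58.7 and 102 TPM in GCs (−1.48, adjusted p = 0.0165), and lost its call without OST replicate 1 (adjusted p = 0.0536), GC replicate 1 (0.0745) or GC replicate 3 (0.0687).

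Of 10 steroid receptor and coregulator genes, 2 were higher in OST and 3 in GCs, with a median of −0.26, beside 33.1% and 20.1% of all genes higher in OST and in GCs. Esr2, the oestrogen receptor of GCs, had 7.67, 8.47 and 6.16 TPM in OST, against 10.4, 12.2 and 11.4 TPM in GCs (log2 difference −0.56), and Ncoa2, a coactivator, had −0.54. Pgrmc1, a haem-binding membrane protein, had 189, 214 and 206 TPM in OST, against 119, 116 and 127 TPM in GCs (0.74).

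Cell cycle genes went both ways. Of 24, 7 were higher in OST and 8 in GCs, with a median of 0.09, beside 33.1% and 20.1% of all genes. The median was −0.17 without globin and mitochondrial genes, where 3 were higher in OST and 9 in GCs. The GC count was 5 without GC replicate 1 or without GC replicate 3. Ccnd1, cyclin D1, had 34.2, 36.1 and 42.9 TPM in OST, against 4.95, 2.21 and 2.26 TPM in GCs (log2 difference 3.28, SE 0.25, adjusted p = 7.45e-05). Mki67, the proliferation antigen, had 26.2, 32.5 and 27.1 TPM in OST, against 46.5, 42.4 and 46.8 TPM in GCs (−0.65), and Aurka, a mitotic kinase, had −0.56. Mcm6 and Mcm2, of the replication helicase, had differences of 0.58 and 0.40, and Pcna, the sliding clamp, had 0.39. Without globin and mitochondrial genes Mcm2 (0.12, adjusted p = 0.207) and Pcna (0.11, adjusted p = 0.109) lost their calls.

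Glycolysis and hypoxia genes gave 3 calls in OST and 4 in GCs among 19, with a median of −0.07, beside 33.1% and 20.1% of all genes. Without globin and mitochondrial genes these counts were 1 and 10, and the median was −0.35. The OST count was 5 without OST replicate 1 and 6 without GC replicate 1, and the GC count was 2 without OST replicate 2, GC replicate 1 or GC replicate 3. The oxygen-regulated factors Hif1a (−0.96) and Epas1 (−1.17) were higher in GCs, and Epas1 had 23.7, 33.7 and 34.1 TPM in OST, against 67.3, 66.1 and 73.2 TPM in GCs. Car9, a carbonic anhydrase, was higher in OST (0.98). Of 9 neuropeptide genes, none was called higher in OST and 6 in GCs (median −0.97), beside the same shares of all genes. However, 1 was called higher in OST without OST replicate 3 or without GC replicate 2. Tac1, the substance P precursor, had 2.26, 2.53 and 1.81 TPM in OST, against 6.06, 7.15 and 9.20 TPM in GCs (−1.39).

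Oocyte genes mostly differed by small margins. Of 18, 8 were higher in OST, 1 was higher in GCs and 9 did not pass, with a median of 0.25 that was −0.01 without globin and mitochondrial genes. Over all genes, 33.1% were higher in OST and 20.1% in GCs. The OST count was 5 without OST replicate 1, 4 without OST replicate 2, 5 without GC replicate 1 and 5 without GC replicate 2, and the GC count was 4 without OST replicate 1. Sohlh1, a transcription factor of the smallest oocytes, had 4.44, 4.53 and 4.53 TPM in OST, against 0, 0.215 and 0.0556 TPM in GCs (log2 difference 2.34, SE 0.10, adjusted p = 1.71e-06). Bmp15, a growth factor secreted by oocytes of growing follicles, had 57.7, 52.2 and 37.2 TPM in OST, against 74.4, 78.4 and 81.3 TPM in GCs (−0.68). Summed TPM of the list was 497 to 791 in OST, against 574 to 642 in GCs, so GC libraries held oocyte transcripts at about the level of OST.

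Leukocyte genes were uneven between the GC libraries. Summed macrophage and monocyte TPM was 271, 262 and 419.7 in OST, against 777, 306 and 655 in GCs, and summed neutrophil TPM was 216, 59.4 and 90.7 in OST, against 609.6, 129.7 and 406 in GCs. GC replicate 2 had the lowest leukocyte sums and the highest globin share of the 3 GC libraries. Of 16 macrophage and monocyte genes, 4 were higher in OST and 3 in GCs (median −0.59), beside 33.1% and 20.1% of all genes. Without GC replicate 2 the GC count was 7, while without OST replicate 3 the OST count was 2. Ccr2, the receptor that recruits monocytes, had 2.29, 1.52 and 3.92 TPM in OST, against 28.2, 7.61 and 27.0 TPM in GCs (log2 difference −2.48, adjusted p = 0.009). Itgam, an integrin of myeloid cells, had −2.42, and Mrc1, a receptor of resident macrophages, was higher in OST (0.50). In the fit over all 12 libraries, 0 of 18 macrophage and monocyte genes were called in either direction. Ccr2, Itgam and Mrc1 thus lost their calls there.

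Of 12 neutrophil genes, 4 were higher in GCs and 1 in OST (median −1.41), beside 20.1% and 33.1% of all genes. In the fit over all 12 libraries 0 were called higher in GCs and 1 in OST. The GC count rested on single libraries. It was 0 without OST replicate 2 or GC replicate 1, 1 without OST replicate 3 or GC replicate 3, and 9 without GC replicate 2, where the OST count was 2. Of 9 lymphocyte genes, 4 were higher in GCs and 1 in OST (median −0.58), beside the same shares of all genes. The fit over all 12 libraries called 1 in GCs and 0 in OST. The gene higher in OST was Gzmb, a cytotoxic granule protease, with 33.0, 23.9 and 21.3 TPM in OST, against 7.76, 4.60 and 3.25 TPM in GCs (2.17). T cell receptor genes of the CD3 complex were below the TPM filter. Of 8 erythroid genes, 7 were higher in GCs and none was higher in OST, although 1 was called there without GC replicate 2, with a median of −4.10.

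Other genes that the study discusses lay on both sides. Agtr2, the type 2 angiotensin receptor, had 6.70, 4.03 and 2.44 TPM in OST, against 1.31, 1.24 and 1.43 TPM in GCs (log2 difference 1.14, SE 0.27, adjusted p = 0.0122). Cxcl10, an interferon-induced chemokine, had 5.09, 4.49 and 35.2 TPM in OST, against 2.28, 0.710 and 0.420 TPM in GCs (2.42, SE 0.78, adjusted p = 0.0402), with OST replicate 3 far above the rest. Cxcl10 lost its call without GC replicate 1 (adjusted p = 0.0956), GC replicate 2 (0.0674) or GC replicate 3 (0.147). Selplg, a selectin ligand of leukocytes, had 2.31, 1.32 and 2.46 TPM in OST, against 12.1, 3.30 and 11.3 TPM in GCs (−1.57, adjusted p = 0.0277), and lost its call on leaving out OST replicate 1 (0.0626), OST replicate 2 (0.0697), OST replicate 3 (0.093), GC replicate 1 (0.106) or GC replicate 3 (0.102). Selplg was lowest among GC libraries in GC replicate 2, as were the leukocyte sums.

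Chemokines and their receptors were higher in GCs in 9 of 17 cases and in OST in 3, beside 20.1% and 33.1% of all genes. The median was −0.94, and the GC count was 5 without GC replicate 1 or without GC replicate 3. In the fit over all 12 libraries 2 were called higher in OST and 0 in GCs. Those higher in OST included Cxcl12, the chemokine of stromal cells, with 70.8, 85.6 and 95.1 TPM in OST, against 3.69, 2.53 and 1.75 TPM in GCs (log2 difference 4.56, SE 0.20, adjusted p = 4.88e-06), and its scavenging receptor Ackr3 (1.37). Its signalling receptor Cxcr4 went the other way, with 165, 247 and 313 TPM in OST, against 705, 564 and 783 TPM in GCs (−1.53, SE 0.25, adjusted p = 0.00302). Cxcr4 is expressed by leukocytes and, after the LH surge, by GCs. The GC leukocyte sums given above moved with several of these genes, and their part in the result was not tested.

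In the IgG ovaries, the contralateral ovaries of injected females, the same tissue contrast gave 1554 calls among 13301 genes (11.7%). The 12544 genes tested in both had a correlation of 0.798 between the 2 tissue differences, as a description across genes, and 68.3% had the same sign. Of the 408 genes with an adjusted p under 0.05 and a log2 difference beyond 2 in Sema3E ovaries, 99.8% had the same sign in IgG ovaries and 293 were called there. Without OST replicate 3 of the IgG ovaries, an alternative chosen after seeing the data, the correlation was 0.884, calls numbered 2199 of 12786, and 325 of the 408 genes were called.

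The test of the difference itself, tissue by injection, took the 12 libraries as independent, since no label ties ovaries to a mouse. It passed an adjusted p under 0.05 for 0 of 13379 genes in limma, where 2697 genes (20.2%) had an unadjusted p under 0.05 and the smallest adjusted p was 0.17. With OST replicate 3 of the IgG ovaries left out, 1 gene passed. The median difference of the tissue differences was −0.22. List medians, whose differences between the 2 kinds of ovary were not tested, were, for vessel and stroma genes, 3.17 in Sema3E ovaries against 2.93 in IgG ovaries for smooth muscle, 3.10 against 2.42 for endothelium, 2.97 against 2.84 for fibroblasts and 1.90 against 2.20 for theca.

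For the follicle lists, none of whose genes passed the interaction test, the GC marker median was −0.52 in Sema3E ovaries against 0.32 in IgG ovaries, the steroid synthesis median was 0.55 against −0.11, the cholesterol synthesis median was 0.36 against −0.51 and the oocyte median was 0.25 against 1.52, beside 0.06 against 0.29 over all genes. The IgG medians rest on uneven OST libraries, whose summed TPM ran from 2050 to 8523 for steroid synthesis, from 444 to 3782 for cholesterol synthesis and from 723 to 2299.7 for oocyte genes. Cyp11a1 was higher in OST by 1.46 in Sema3E ovaries, against −0.31 in IgG ovaries, and the difference between these was 1.76 with an SE of 1.67 (interaction adjusted p = 0.549). Areg had 0.81 in Sema3E ovaries, against −2.27 in IgG ovaries (difference 3.08, SE 1.05, adjusted p = 0.185). Kctd14 had 1.42 in Sema3E ovaries, against 3.52 in IgG ovaries (difference −2.11, SE 0.68, adjusted p = 0.181). The errors are wide, and the data do not show that these tissue differences were alike in the 2 kinds of ovary.

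**Figure D5:**
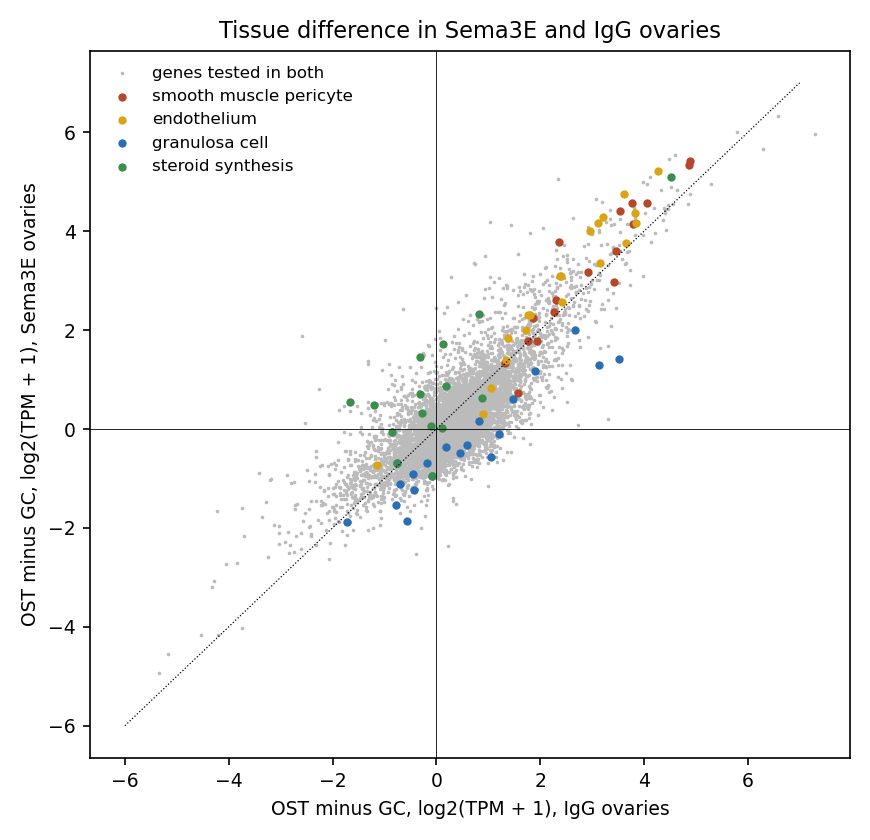
Each point is 1 gene, with its OST minus GC difference in log2(TPM + 1) in IgG ovaries on the horizontal axis and in Sema3E ovaries on the vertical axis; coloured points belong to the lists named, and the dotted line marks equal values. Most smooth muscle and endothelial genes lie near or above the line on the right, while many GC markers lie below it and several steroid synthesis genes above it.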

How the data were processed

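Bulk RNA-seq had been measured in GCs and OST of Sema3E- and IgG-injected ovaries, 3 libraries a group. The authors deposited TPM, made from reads aligned to GRCm38 (mm10) with HISAT2 (version 2.0.5) and counted with featureCounts (version 1.5.0-p3). EdgeR (version 1.3.3) is listed in the submitters' processing notes too. Not given in the sources used here are how reads of near-identical genes were divided and why the lowest TPM above 0 was 8.44e-46. TPM holds no depth, so no count model was used and no counting error is given. Coordinates in the table differ from GRCm38 (480 starts equal), so positions came from GENCODE M21 by gene identifier (23095 genes matched).

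Protein-coding genes over 1 TPM in at least 1 of 6 libraries were fitted with limma (version 3.58.1, R 4.3.3, trend and robust) on log2(TPM + 1), OST minus GC, two-sided, with Benjamini-Hochberg adjustment over 12622 genes. Log2 differences on this scale understate the change of low genes. An exact permutation test of 3 against 3 libraries cannot go below p = 0.1 and was not used. On simulated data, 91 of 100 genes changed by a log2 of 1 and 98 of 100 changed by 2 were called, beside 10 of 12422 unchanged. Each p-value weighs a difference of group means against the spread between these libraries, shared in part among genes. Which mice the libraries came from is unknown, so the spread between mice is not known.

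The members and gene lists were chosen with earlier results of these data known. Genes named were those the study discusses, the 12 largest differences each way that passed and did not overlap, the most abundant genes, and for each list up to 4 members of smallest p and those against its direction. A few list members outside that rule (Lyve1, Myocd and Fn1) were named after their values were seen. Some genes that this rule names are not reported here. Alternatives covered the pseudocount, the filter, gene biotypes, scaling, robust estimation, the 12-library fit, a replicate block and leaving out each library.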

Additional observations from a re-analysis of the deposited data

How the results depend on the processing

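Under the 16 alternatives, no gene called in both fits changed sign, and 75 of the 172 called genes that were named lost the call in at least 1 of them, 70 of these in the fit over all 12 libraries. Genes past the adjusted p numbered 5238 to 6536 when single libraries were left out (3521 to 4405 higher in OST and 1644 to 2570 higher in GCs), and genes past the cutoffs of the study numbered 1368 to 1554 (249 to 454 higher in GCs). The fit over all 12 libraries gave 3822 calls, 2695 higher in OST and 1127 in GCs, and 217 genes past the cutoffs that were higher in GCs. Without globin and mitochondrial genes, 5672 genes were called higher in GCs and 675 were higher there under the cutoffs, which numbered 552 with a pseudocount of 0.1 and 500 over all gene biotypes. Scaling by median ratios gave 53.8% of calls higher in OST. Cd44, never called, was −0.02 with median ratios, −0.20 without globin and mitochondrial genes and −0.16 to 0.25 with 1 library left out. With the replicate number as a block there were 6349 calls, and Cxcl10, Saa3, Amh, Inhba and Mcm5 lost theirs (adjusted p = 0.216, 0.0938, 0.152, 0.0583 and 0.056). Same-numbered OST and GC libraries deviated together by r = 0.029, 0.371 and 0.019, against −0.365 to 0.262 for other pairs. So few libraries cannot decide whether the numbers pair them, and the pairing remains unknown. The interaction gave 0 to 1 genes with 1 library left out. Unknown depth limits what can be said of genes near 1 TPM.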

Other observations

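Genes that do not code for protein lie outside the comparison above, and the 3 given here were chosen after their values were seen. In a fit over all biotypes, 3076 such genes were tested, of which 485 were higher in OST and 429 in GCs (29.7% called). H19, an imprinted RNA of mesenchymal tissue in the fetus, had 179, 215 and 147 TPM in OST, against 20.1, 15.4 and 13.0 TPM in GCs (log2 difference 3.40, SE 0.19, limma adjusted p = 4.4e-05). Dnm3os, the host RNA of microRNAs expressed in mesenchyme, had 11.6, 12.9 and 12.2 TPM in OST, against 1.26, 0.951 and 1.16 TPM in GCs (2.64). Meg3, an imprinted RNA, went the other way, with 18.3, 29.8 and 21.1 TPM in OST, against 74.1, 92.5 and 59.9 TPM in GCs (−1.68, SE 0.22, adjusted p = 0.00137). These 3 were picked from called genes whose groups do not overlap, so nothing is read from their separation.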
